A study of Mus musculus with 3 samples.

Results

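The clustered protocadherin genes were followed across 3 ribosome profiling libraries of mouse cortical neurons. Members were the protein-coding genes whose GENCODE symbol begins with Pcdha, Pcdhb or Pcdhg, and 57 were found. The series was represented by 20808 genes with at least 1 transcript that has an annotated 5′ UTR, CDS and 3′ UTR, which hold 54 of the 57. There were 12 alternate alpha genes, 2 C-type alpha genes (Pcdhac1 and Pcdhac2), 22 beta genes, 12 gamma A genes, 6 gamma B genes and 3 C-type gamma genes (Pcdhgc3, Pcdhgc4 and Pcdhgc5). All lie on the plus strand of chromosome 18 (mm10): the alpha cluster from 36930285 to 37185256, the beta cluster from 37264998 to 37520865 and the gamma cluster from 37661945 to 37840129. GENCODE gives the symbol Pcdha11 to a pair of genes, and the one that starts at 37005320 (ENSMUSG00000007440.10) is called Pcdha10 here, its RefSeq name.

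Ribosome profiling sequences the stretches of mRNA that ribosomes shield from nuclease. The cells were primary cortical neurons cultured from CD-1 mouse embryos, with no genotype given in the labels, and each library pooled 3 dishes. The WT library came from undrugged cells, the Chx library from cells given cycloheximide (an elongation inhibitor) for 2 min, and the Harr library from cells given harringtonine (which holds ribosomes at the start of translation while elongating ribosomes run on) for 2 min followed by cycloheximide. Rinse and lysis buffers held cycloheximide at 100 μg/ml in all 3 libraries, the WT library included. With 1 library per treatment no difference has a replicate check, no p-value is given, and intervals cover counting error only. The interval of a median is the exception: it is taken over genes and bounds their median, not their spread. It treats genes as independent, which paralogues that can share reads are not.

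The 3 libraries held 35722483 (Chx), 9754412 (Harr) and 30219197 (WT) reads, of which 20212047, 3774621 and 16673134 lay in the CDS of the longest transcript of each gene. The Harr library was therefore the shallowest, and its intervals are the widest. Of 8 neuronal marker genes, none was at 0 in a library, and their summed CDS level was 4715, 4021 and 4967 reads per 1000000 in Chx, Harr and WT. Map2, with 74114, 28328 and 67432 reads, made up much of that sum, and the median log2 ratio of Harr over Chx was -0.54 over the 8 neuronal and -1.08 over the 4 astrocyte markers. The 4 astrocyte markers summed to 195, 78.8 and 213 reads per 1000000, the 4 microglia markers to 1.62, 0.513 and 1.19, the 4 oligodendrocyte markers to 6.52, 2.15 and 5.72 (Mog and Mobp at 0 in each library), and the 4 vascular and stromal markers to 11.4, 8.51 and 12.7. Most astrocyte marker reads were of Slc1a3 (3902, 356 and 3809) and Aldh1l1 (2669, 383 and 2263), beside 75, 3 and 68 for Gfap. The study reports its cultures to be without contaminating non-neuronal cells. Transcripts of astrocyte markers were nonetheless present, and their part in the protocadherin values was not tested.

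Clustered protocadherins are cell surface adhesion molecules of neurons that bind the same isoform on another membrane, and they are known for the recognition of self among the branches of one neuron. Each alpha or gamma gene has its own promoter and its own large variable exon, which encodes the extracellular cadherin repeats, the transmembrane segment and a short cytoplasmic stretch. That exon is spliced to constant exons shared by the whole cluster, which encode a common cytoplasmic end. Beta genes are a single coding exon and have no constant part. Alternate promoters are chosen in part at random in each neuron with the help of CTCF and cohesin, while C-type genes are used more uniformly. In bulk libraries, fewer neurons using a gene and less of it per neuron cannot be told apart, and without matched RNA-seq neither can mRNA level and ribosome load.

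Each member was measured on its variable exon alone, 2319 to 2562 nt long, and shared constant exons were kept apart. Because paralogues are alike, a read from one can fit another. The share of 25-nt words (the shortest read kept) that an exon had in common with any other annotated transcript was 21% to 45.6% for alternate alpha genes, 12.6% to 29.7% for gamma B, 1.12% to 14.1% for gamma A and 0% to 38.4% for beta. C-type exons shared at most 0.0415%. The study's methods let a read keep several alignments in its separate search for translated ORFs, but do not say how such reads were treated in the tables used here, so levels of alternate alpha, beta and gamma B genes are less certain than those of C-type genes.

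Footprints were found on all 57 variable exons in all 3 libraries, and the level differed far more among genes than among treatments. The members took 50958, 14615 and 38540 reads for Chx, Harr and WT, or 0.252%, 0.387% and 0.231% of CDS reads. The level, in reads per kilobase of exon and per 1000000 reads of the library (RPKM), ran in WT from 0.242 (Pcdhb1) to 39.2 (Pcdhgc4) around a median of 7.49. The highest member stood 153-fold above the lowest in Chx, 135-fold in Harr and 162-fold in WT. Most members were of modest level: 13 of 57 in WT and 14 in Chx lay above the median (11.7 and 12.4 RPKM) of the 11459 genes that reached 100 CDS reads in the 3 libraries together, against 30 of 57 in Harr, where that median was 8.0 RPKM.

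**Figure D1:**
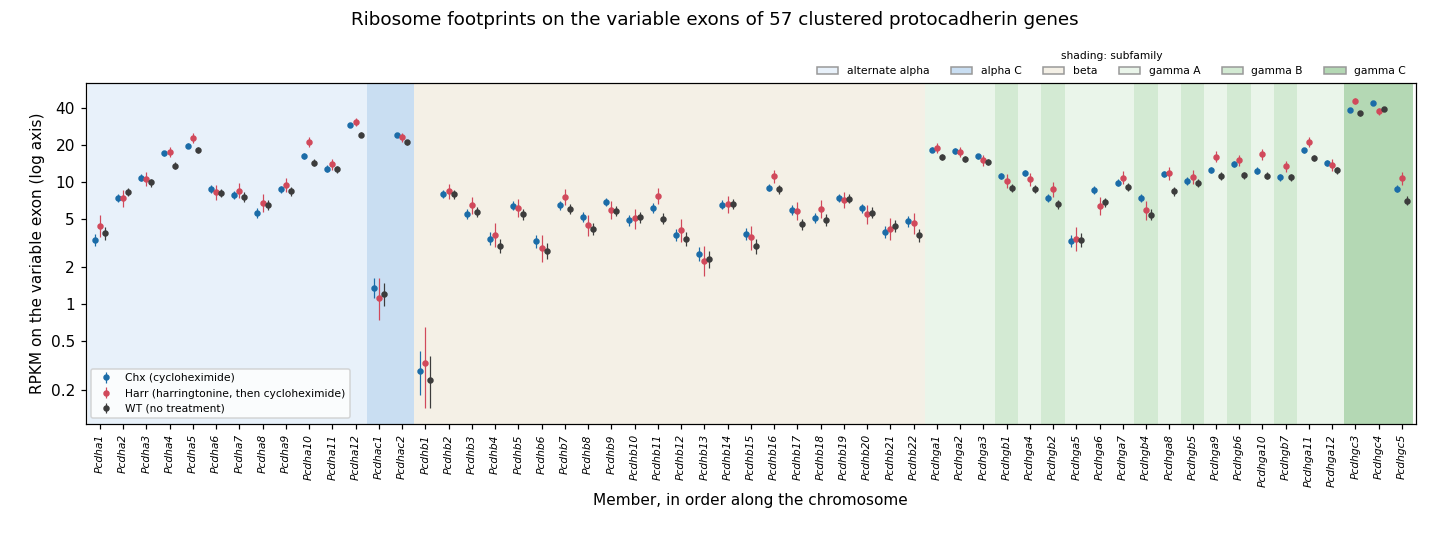
RPKM on the variable exon (log axis) of each of 57 members in order along the chromosome, in Chx (blue), Harr (red) and WT (black), with 95% Poisson counting intervals and shading by subfamily. Pcdhgc3, Pcdhgc4, Pcdha12 and Pcdhac2 stand highest and Pcdhb1 and Pcdhac1 lowest in each library.

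C-type genes stood at the top of the range and next to its bottom. Pcdhgc4, whose protein is known to be needed for the survival of cortical interneurons, had 3816, 892 and 2905 reads for Chx, Harr and WT. Its level was 43.6 RPKM (95% Poisson interval 42.2 to 45.0) in Chx, 37.3 (34.9 to 39.8) in Harr and 39.2 (37.8 to 40.7) in WT, the highest of all members in Chx and WT. Pcdhgc3, whose cytoplasmic part is known to bind Axin1 and dampen Wnt signalling, had 3300, 1069 and 2632 reads. Its 38.0, 45.1 and 35.8 RPKM put it below Pcdhgc4 in Chx and WT and above it in Harr, with intervals apart in each library.

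Pcdhac2, the isoform that serotonergic neurons are known to rely on for the tiling of their axons, had 2199, 571 and 1617 reads and stood just below Pcdha12 in each library at 24.0, 22.8 and 20.9 RPKM. Pcdhgc5, a late-expressed C-type gene, was near the middle at 8.77, 10.7 and 6.98 RPKM (771, 256 and 519 reads). Pcdhac1 was close to the bottom, with 119, 27 and 89 reads and 1.37, 1.14 and 1.21 RPKM. The 2 alpha C-type genes therefore differed 17.3-fold in WT, although they use the same constant exons. Only Pcdhb1 was lower than Pcdhac1, with 25, 8 and 18 reads (0.285, 0.334 and 0.242 RPKM).

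Among alternate alpha genes, those nearest the constant exons included the highest, but the order was not strict. Pcdha12, the last alternate exon before the C-type exons, had 28.7, 30.5 and 24.0 RPKM in Chx, Harr and WT and by itself made up 16.7%, 16.5% and 15.3% of the summed alpha variable exon density. Pcdha5 followed in WT at 17.9 RPKM (19.5 in Chx, 22.6 in Harr). Pcdha1, the first exon of the cluster, was lowest at 3.35, 4.38 and 3.81 RPKM, and Pcdha8 next in WT at 6.49. Spearman's rho between position along the cluster and level was 0.44, 0.51 and 0.44 for Chx, Harr and WT over 12 genes, which share each library and much of their sequence.

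Beta genes had the lowest median of all subfamilies. It was 5.34 RPKM in Chx, 5.62 in Harr and 4.94 in WT, against 12.3, 14.3 and 11.1 for gamma A, 10.5, 10.5 and 9.33 for gamma B and 9.70, 9.97 and 9.07 for alternate alpha genes. Pcdhb16 (8.94, 11 and 8.63 RPKM) and Pcdhb2 (7.99, 8.33 and 7.87) were the highest beta genes in WT, and Pcdhb1 and Pcdhb13 (2.58, 2.27 and 2.33) the lowest. Position along the beta cluster carried no order, with rho of 0.09, 0.04 and 0.07 over 22 genes.

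In the gamma cluster, Pcdhga1 (18.2, 18.8 and 16 RPKM) and Pcdhga11 (17.9, 21 and 15.6) led the A genes in WT, and Pcdhga5 (3.30, 3.43 and 3.36) and Pcdhga6 (8.58, 6.34 and 6.78) were lowest. The B genes spanned only 2.08-fold in WT, from 5.39 RPKM for Pcdhgb4 to 11.2 for Pcdhgb6. Pcdhgb2 was next to the lowest at 6.52 RPKM and Pcdhgb7 next to the highest at 10.8. The A and B genes are interspersed along the chromosome. Spearman's rho of level with position was -0.13 (Chx), 0.06 (Harr) and -0.10 (WT) over the 12 A genes and 0.31, 0.71 and 0.71 over the 6 B genes, which share each library.

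By subfamily, the summed density per nucleotide in WT was made up of 25.5% alternate alpha, 25% gamma A, 19.9% beta, 15.5% gamma C, 9.96% gamma B and 4.18% alpha C. In Chx the shares were 24.8%, 26.0%, 19.4%, 15.3%, 10.3% and 4.30%, and in Harr 25.8%, 26.0%, 19.1%, 15%, 10.3% and 3.86%. As shares of reads, gamma C stood at 15.5% (95% Wilson interval 15.2 to 15.8), 15.2% (14.6 to 15.8) and 15.7% (15.4 to 16.1) for Chx, Harr and WT. The gamma A share of reads was lower in WT (25%, 24.6 to 25.5) than in Chx (26.1%, 25.7 to 26.5) by more than counting error. For alternate alpha, beta, gamma B and gamma C the intervals of Chx, Harr and WT overlapped, and for alpha C those of Harr (3.78% to 4.43%) reached into those of both others.

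The order of members was also largely kept, though Pcdhgc3 stood above Pcdhgc4 in Harr only. Spearman's rho of the levels in a pair of libraries was 0.97 for Harr and Chx, 0.98 for Harr and WT and 0.98 for Chx and WT over 57 genes, which share exon sequence and depth. Few neighbours in the order could be told apart by counting error: 7 of 56 neighbouring pairs had Poisson intervals that did not overlap in Chx, 5 in Harr and 7 in WT. All but 1 of those pairs (Pcdhga3 above Pcdhga12 in Chx) lay at the ends. Pcdhgc4 or Pcdhgc3, Pcdha12 and Pcdhac2 were separated at the top and Pcdhb13, Pcdhac1 and Pcdhb1 at the bottom in each library, while most of the members in between differed from their neighbours by less than their intervals.

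Relative to other genes, the variable exons kept more footprints after harringtonine. Per CDS read of the library, the log2 ratio (Harr over Chx) was above 0 for 56 of the 56 members with at least 100 reads, with a median of 0.60 (95% interval of the median 0.53 to 0.66) and a range of 0.12 to 0.99. Over 11459 genes the median was -0.05, and 5457 were above 0. Against WT the members' median was 0.70 (0.64 to 0.78), with 56 of 56 above 0 and a range of 0.34 to 1.13, beside a median of 0.00 over all genes. Each subfamily shared the rise: pooled log2 ratios of Harr to Chx were 0.68 for alternate alpha, 0.47 for alpha C, 0.60 for beta, 0.62 for gamma A, 0.62 for gamma B and 0.59 for gamma C.

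The size of these ratios depends on the scale, which moves all genes alike. Scaling to all reads of the library moved every gene's log2 ratio by -0.55 for Harr to Chx and by -0.51 for Harr to WT, and the members' medians were then 0.06 and 0.19. Scaling by the median of ratios over genes moved them by 0.02 and -0.02.

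Genes of like length, a comparison chosen after the data had been seen for whole reading frames, were set beside the members. Over 1802 genes with a whole CDS of 2000 to 3000 nt, the median log2 ratio was 0.29 (0.27 to 0.31) for Harr to Chx and 0.36 (0.34 to 0.38) for Harr to WT. Over 103 genes whose first coding segment alone was of that length, it was 0.36 (0.24 to 0.46) and 0.40 (0.31 to 0.49). The members' medians were above those of both sets in these libraries, and paralogues that can share reads are not independent of each other. The 12 non-clustered protocadherins, whose genes lie outside the clusters, were higher still, at 1.01 and 1.13 over the 11 with enough reads. They were not matched for length: their CDSs ran from 1083 nt (Pcdh1) to 5034 nt (Pcdh15), most of them above 3000 nt.

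**Figure D2:**
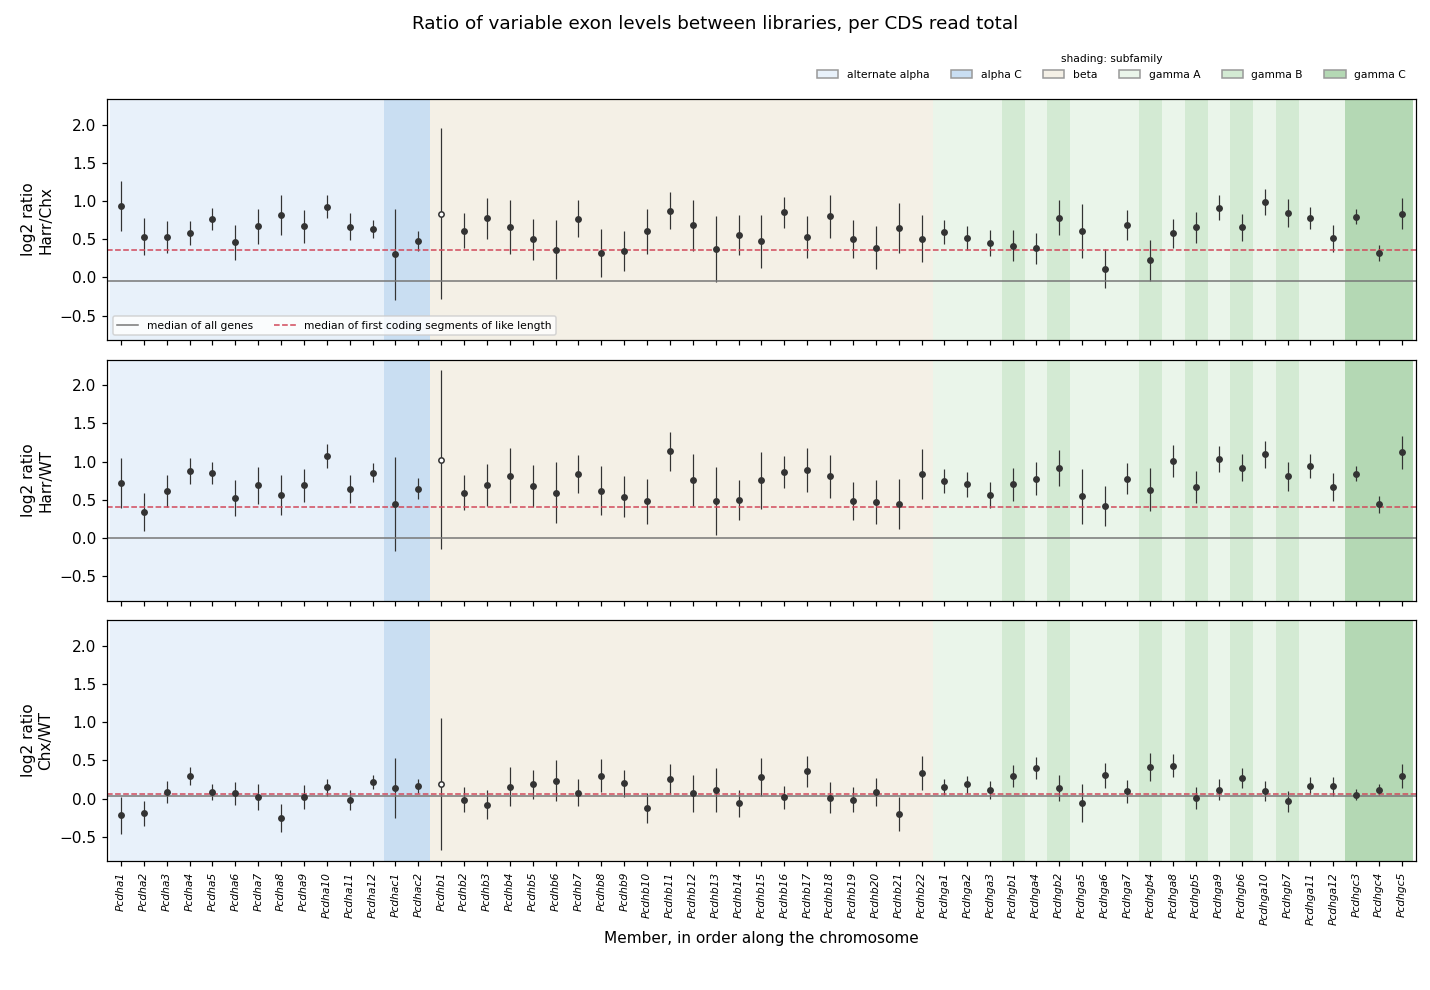
Log2 ratio of variable exon reads between libraries, per CDS read total, for each of 57 members (points, with 95% counting intervals; the open point is Pcdhb1, under 100 reads). The grey line is the median of all genes and the dashed red line that of genes with a first coding segment of 2000 to 3000 nt, and most points of the upper panels lie above both.

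A log2 ratio of at least 1 with a 95% counting interval clear of 0 was called past the fold. None of the 56 members passed it for Harr to Chx in either direction, where 4.63% of 11459 genes were higher and 13.7% lower, and 11.7% of the 103 genes with a like first segment were higher. For Harr to WT, 6 of 56 members were higher, beside 5.3% of all genes and 11.7% of the like segments, and 0 were lower, beside 14.3%. The members' 6 of 56 is close to the share of the like segments.

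The 6 members past the fold in Harr over WT came from 4 subfamilies. All of these calls end when the libraries are scaled to all their reads, Pcdhga8 falls to 0.99 with median-of-ratios scaling, and 2 of the 6 are among the 16 members with at most 10% shared words. Pcdhb11 had 523, 179 and 361 reads in Chx, Harr and WT and a log2 ratio of 1.13 ± 0.13 (counting SE). For Pcdhgc5 it was 1.12 ± 0.11, for Pcdhga10 (1063, 394 and 816 reads) 1.09 ± 0.09 and for Pcdha10 (1378, 489 and 1028 reads) 1.07 ± 0.08. Pcdhga9 and Pcdhga8 passed at 1.03 ± 0.09 and 1.01 ± 0.10. At the other end stood Pcdha2 (630, 170 and 595 reads; 0.34 ± 0.13), Pcdhga6 (743, 150 and 497 reads; 0.42 ± 0.13) and Pcdhgc4 (0.44 ± 0.06).

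Against Chx, Pcdhga10 (0.99 ± 0.09), Pcdha1 (0.94 ± 0.17) and Pcdha10 (0.93 ± 0.08) had the highest ratios, and Pcdhga6 (0.12 ± 0.13), Pcdhgb4 (0.22 ± 0.14) and Pcdhac1 (0.30 ± 0.31) the lowest. Both contrasts share the Harr library. Within the gamma C genes, Pcdhgc4 (0.32 ± 0.05) lay below Pcdhgc3 (0.80 ± 0.05) and Pcdhgc5 (0.83 ± 0.10) by more than counting error.

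Chx and WT differed little. The median log2 ratio of the members was 0.12 (0.07 to 0.16), beside 0.03 over all genes and 0.07 over genes with a CDS of like length. No member passed the fold in either direction, beside 0.201% of genes upward and 0.122% downward. The range ran from -0.25 ± 0.09 for Pcdha8 (475 reads in Chx and 467 in WT) to 0.43 ± 0.07 for Pcdhga8 (996 and 609 reads). Pcdha1 (-0.22 ± 0.12) and Pcdhb21 (-0.20 ± 0.11) were also at the low end, and Pcdhgb4 (0.41 ± 0.09) and Pcdhga4 (0.39 ± 0.07) at the high end.

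The variable exons of alpha and gamma genes feed into constant exons, and the densities of both parts were set against each other. The constant coding segments of the alpha cluster are 59, 89 and 311 nt long (37156155 to 37156213, 37159265 to 37159353 and 37184946 to 37185256) and are shared by all 14 alpha genes. Those of the gamma cluster are 59, 89 and 227 nt long (37825021 to 37825079, 37833265 to 37833353 and 37839903 to 37840129) and are shared by all 21 gamma genes. The alpha segments held 1709, 703 and 1399 reads for Chx, Harr and WT, and the gamma segments 2303, 729 and 1644.

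Density on the constant exons was below the sum over variable exons in each library and cluster. For alpha, the ratio of constant density to summed variable density was 0.607 (95% counting interval 0.577 to 0.638), 0.852 (0.787 to 0.923) and 0.644 (0.609 to 0.680) for Chx, Harr and WT. For gamma it was 0.565 (0.541 to 0.589), 0.627 (0.581 to 0.676) and 0.544 (0.518 to 0.572). Adding the polymorphic pseudogene Pcdhgb8, which uses the same constant exons and had 400, 110 and 297 reads on its 2421-nt exon, left these gamma ratios within their intervals, a step added after the data had been seen. Except for gamma in Harr, where the ratio was below that of other genes, a drop of this size was not particular to the protocadherins. In up to 30 other genes with a first coding segment of 2000 to 3000 nt, the density over the coding segments just downstream was a median of 0.580 (0.432 to 0.656) of that on the first segment in Chx, 0.836 (0.702 to 1.44) in Harr and 0.578 (0.458 to 0.710) in WT.

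In Harr the constant exons gained on the variable exons. The log2 change of the alpha ratio was 0.49 (0.35 to 0.62) for Harr to Chx and 0.40 (0.26 to 0.54) for Harr to WT, and that of the gamma ratio 0.15 (0.03 to 0.28) and 0.20 (0.07 to 0.34). In the other genes the median change was 0.61 (0.31 to 1.01) and 0.78 (0.44 to 1.03), with 25 of 28 and 26 of 29 above 0. Between Chx and WT the change over all constant exons was -0.08 (-0.19 to 0.02) for alpha and 0.05 (-0.04 to 0.15) for gamma, but the last alpha exon alone gave -0.21 and the 59-nt gamma exon alone 0.27.

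The reads were spread less evenly along the gamma constant exons than along the alpha ones. From the first segment to the last, the alpha segments carried 3.19, 3.02 and 3.03 reads per nucleotide in WT, 4.15, 4.61 and 3.39 in Chx and 1.56, 1.37 and 1.57 in Harr. The gamma segments carried 2.44, 7.21 and 3.78 in WT. Among the gamma constant exons the 89-nt exon was also the densest in Chx (3.98, 9.21 and 5.50 reads per nucleotide) and in Harr (1.37, 3.24 and 1.59). The gain in Harr was not the same for each segment. On the last alpha segment (1054, 489 and 942 reads) the log2 ratio of Harr to Chx was 1.31 ± 0.08, on the 89-nt alpha segment (410, 122 and 269 reads) 0.68 ± 0.15, and on the last gamma segment (1248, 360 and 858 reads) 0.63 ± 0.09. The last gamma segment alone gave a change in the constant to variable ratio of 0.02, and the last alpha segment alone one of 0.66.

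**Figure D3:**
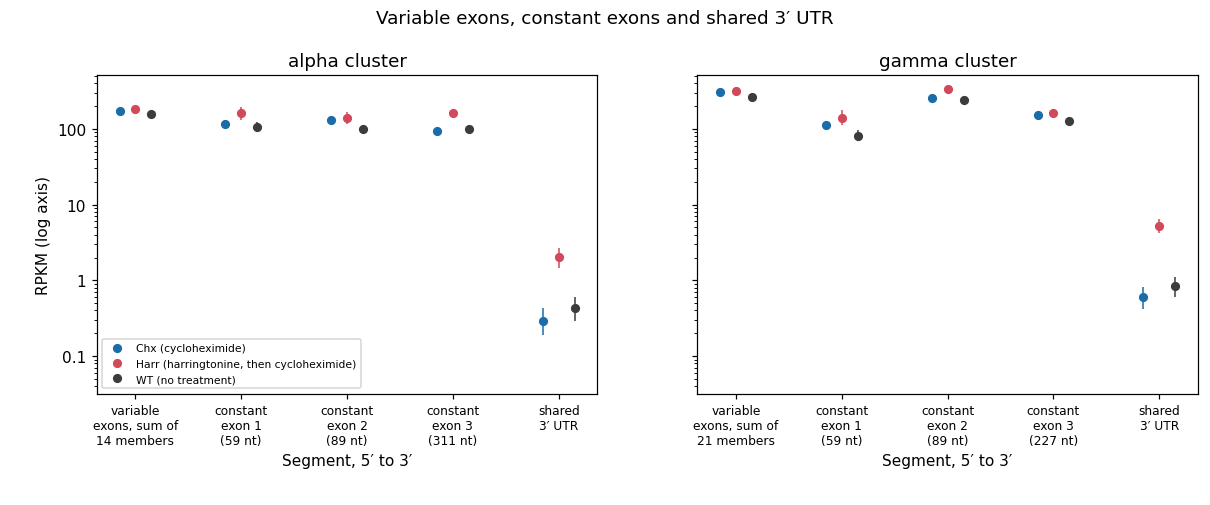
RPKM (log axis) summed over the variable exons of a cluster, on each shared constant exon and on the shared 3′ UTR, in Chx (blue), Harr (red) and WT (black), with 95% Poisson counting intervals on constant exons and 3′ UTRs. Among the gamma constant exons the 89-nt exon is the highest, though above the summed variable exons only in Harr, and the shared 3′ UTRs lie far below the constant exons in each library.

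Past the stop codon the footprints all but ended. The 3′ UTR shared by alpha genes (2401 nt) held 25, 47 and 31 reads for Chx, Harr and WT, a density of 0.280% (0.181 to 0.413), 1.28% (0.939 to 1.70) and 0.424% (0.288 to 0.601) of that on the alpha constant exons. The gamma 3′ UTR (1744 nt) held 37, 89 and 44 reads, or 0.345%, 2.63% and 0.575%. Over the 3′ UTRs of 22 beta genes (35996 nt in all) there were 8, 49 and 41 reads, or 0.119%, 2.58% and 0.788% of the beta coding density, and 16, 6 and 6 of the beta genes had no read there. Each of these was below the 0.733%, 5.60% and 1.22% over 18853 genes whose 3′ UTR overlaps no CDS. In all 3 groups of members the share was highest in Harr, as it was over those genes.

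Within variable exons, the front held a smaller share of the reads in Harr than in Chx in most divisions that could be made. The files list other annotated transcripts that divide 5 of the variable exons in 8 ways with at least 200 nt on each side, a division found after the counts had been seen. In Pcdhb22 the first 771 nt held 160, 12 and 88 reads for Chx, Harr and WT, and the last 1614 nt held 244, 95 and 177. Front density was thus 1.37, 0.264 and 1.04 times the back density, and the log2 odds of front to back in Harr over Chx were -2.33 (-3.22 to -1.43). In Pcdhgc3 the first 1330 nt held 1783, 452 and 1455 reads and the last 1100 nt 1517, 617 and 1177, for log2 odds of -0.68 (-0.88 to -0.48). The first 234 nt of the same exon went the other way, with 471, 169 and 491 reads and odds of 0.18 (-0.10 to 0.45).

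The log2 odds of Harr over Chx were below 0 for 7 of the 8 divisions, and for 4 the interval lay below 0. Over WT all 8 were below 0, and 7 intervals were. The WT library itself was weighted to the front in several exons. In Pcdha4 the first 1602 nt held 782 WT reads against 189 on the last 783 nt, a density ratio of 2.02, where Chx had 1018 against 427 (1.17) and Harr 248 against 156 (0.777). For 5 of 8 divisions the front share was lower in Chx than in WT by more than counting error. These divisions share exons and reads and are not independent.

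**Figure D4:**
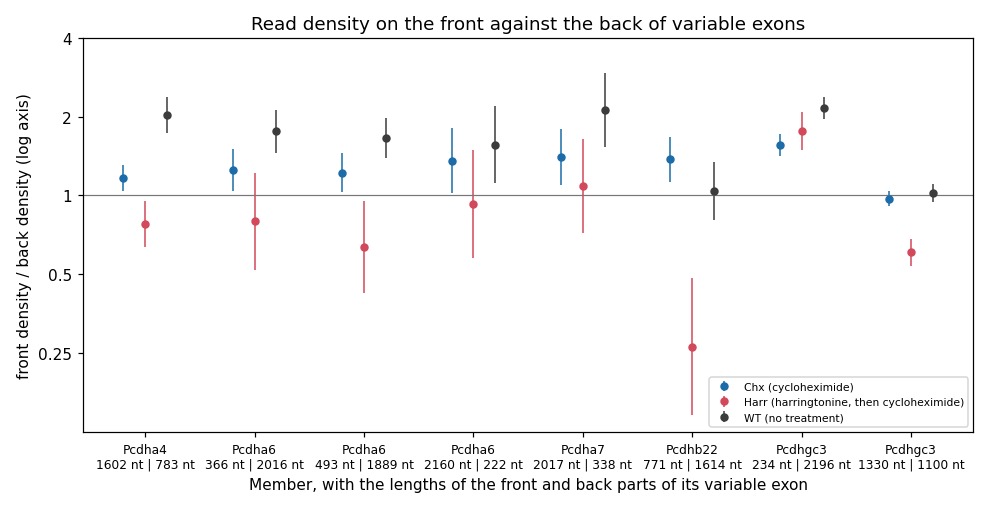
Read density on the front part of a variable exon divided by that on the back part (log axis), for 8 divisions of 5 members, in Chx (blue), Harr (red) and WT (black), with 95% counting intervals; part lengths are given under each name. Harr points are the lowest of the 3 in all but the 234-nt front of Pcdhgc3.

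Footprints at the start of translation were read from the 5′ UTR: a footprint is placed at its first base, so that a ribosome on the start codon falls upstream of it. A 5′ UTR was annotated for 54 of 57 members, all but Pcdha5, Pcdha9 and Pcdhb8, each in 1 segment of 60 to 610 nt that overlapped no CDS. All 57 variable exons opened with ATG, and of 54 members with an annotated 5′ UTR 53 had a purine at the third base before it, all but Pcdhgc4. At least 1 further ATG lay in the 5′ UTR of 36 of 54 members, with 9 in Pcdhb22 and 8 in Pcdhgc4.

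The 54 5′ UTRs took 2598, 2846 and 1885 reads for Chx, Harr and WT. As a share of 5′ UTR and variable exon reads together, that was 5.12% (4.93 to 5.32), 17.1% (16.6 to 17.7) and 4.93% (4.72 to 5.15) for Chx, Harr and WT. Over all genes the shares were 8.86%, 35.0% and 6.28%. Density per nucleotide on the members' 5′ UTRs went from 0.712 times that on the variable exons in Chx and 0.684 times in WT to 2.73 times in Harr, where all genes had 0.608 (Chx), 0.419 (WT) and 3.36 (Harr).

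The 5′ UTR to CDS ratio was higher in Harr for nearly every member. Of 52 members with at least 10 5′ UTR reads in Harr and Chx, 47 were past the fold upward, beside 88.8% of 10806 genes, and 0 downward, beside 0.12%. Against WT it was 47 of 51, beside 93.7% of 10384 genes, and again 0 downward, beside 0.135%. Both shares are close to the background. The median log2 odds were 2.18 (1.91 to 2.35) for Harr over Chx and 2.19 (1.91 to 2.36) over WT, where all genes had 2.45 and 3.23 and genes with a CDS of 2000 to 3000 nt had 2.06 (2.00 to 2.11) and 2.76 (2.69 to 2.83).

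**Figure D5:**
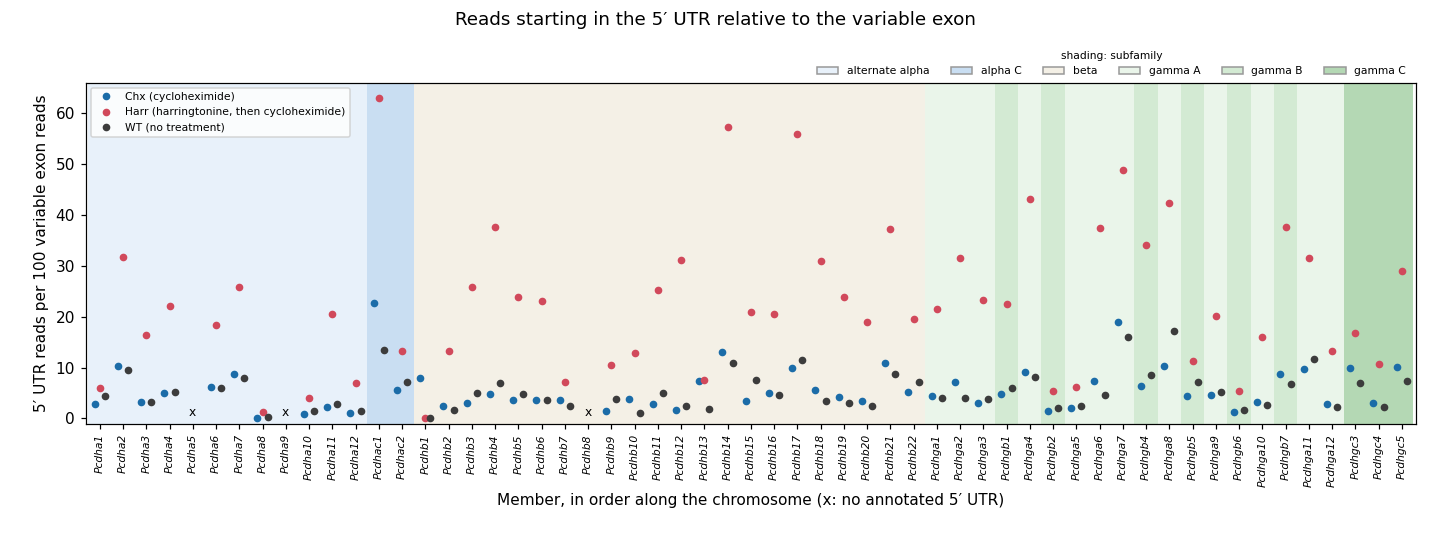
Reads starting in the 5′ UTR per 100 reads on the variable exon for each of 54 members with an annotated 5′ UTR, in Chx (blue), Harr (red) and WT (black); x marks a member without one. Harr points stand above both others for nearly every member, from 1.28 for Pcdha8 to 63.0 for Pcdhac1, and Pcdhb1 had none in Harr.

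The members differed widely in this ratio. In Harr, 5′ UTR reads per 100 variable exon reads were 63.0 for Pcdhac1 (17 over 27 reads), 57.2 for Pcdhb14 (87 over 152), 55.9 for Pcdhb17 (76 over 136) and 48.8 for Pcdhga7 (125 over 256). They were 4.09 for Pcdha10 (20 over 489), 5.41 for Pcdhgb6 (19 over 351) and 1.28 for Pcdha8 (2 over 156). Pcdha8, with a 96-nt 5′ UTR, had 0, 2 and 1 5′ UTR reads in Chx, Harr and WT against 475, 156 and 467 on its exon. That is at or under the 3-count floor in each library, so no odds are given for it.

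Against Chx the rise pooled by subfamily was smallest in the C-type genes, though single beta genes (Pcdhb7 and Pcdhb13) stood below Pcdhgc4 and Pcdhgc5. Pooled over genes, the log2 odds of Harr over Chx were 1.26 (1.05 to 1.46) for gamma C and 1.28 (0.89 to 1.68) for alpha C, against 2.03 (1.82 to 2.25) for alternate alpha, 2.35 (2.17 to 2.53) for beta, 2.02 (1.88 to 2.16) for gamma A and 2.08 (1.81 to 2.34) for gamma B. Against WT the gamma C value of 1.75 (1.51 to 1.98) overlapped gamma B (1.83, 1.55 to 2.10) and alternate alpha (1.91, 1.68 to 2.14), and alpha C stood at 1.06 (0.65 to 1.47). Pcdhgc3 had 326, 180 and 182 5′ UTR reads and log2 odds of 0.77 ± 0.14, and was not past the fold over Chx. Pcdhgc4 (117, 96 and 65 reads) stood at 1.81 ± 0.21 and Pcdhgc5 (78, 74 and 38) at 1.51 ± 0.26. The first 21 nt of the Pcdhgc4 variable exon, which another annotated transcript lists apart, held 73, 65 and 37 reads for Chx, Harr and WT, so footprints near its start codon were also counted inside the exon.

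For Harr over Chx, beta genes gave the highest and the lowest single values. Pcdhb12 had 5, 29 and 6 5′ UTR reads and log2 odds of Harr over Chx of 4.16 ± 0.69, followed by Pcdha11 (25, 66 and 25 reads; 3.14 ± 0.35) and Pcdhb11 (15, 45 and 18; 3.10 ± 0.44). Pcdhb13 (16, 4 and 3 reads; 0.17 ± 0.80) and Pcdhb7 (21, 13 and 11; 0.98 ± 0.52) were lowest with Pcdhgc3. Over WT, Pcdhb12 (3.57 ± 0.65), Pcdhb10 (3.45 ± 0.79) and Pcdhb18 (3.13 ± 0.48) led, and Pcdha1 (0.48 ± 0.72), Pcdhgb5 (0.67 ± 0.35) and Pcdhac2 (0.91 ± 0.22) came last. Most of these rest on fewer than 50 reads a library, so their order is uncertain.

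Between Chx and WT the median member showed no shift of the 5′ UTR to CDS ratio, while the median gene was higher in Chx. The median log2 odds of Chx over WT were -0.03 (-0.29 to 0.24) over 52 members, against 0.66 (0.64 to 0.68) over 10483 genes and 0.66 (0.61 to 0.72) over 1549 genes with a CDS of like length. Of the 52 members 2 were past the fold upward, beside 30.2% of genes, and 1 downward, beside 1.09%. Those were Pcdhb13 (16 reads in Chx and 3 in WT; 1.85 ± 0.86) and Pcdhb10 (16 and 4; 1.72 ± 0.77) upward and Pcdhb9 (9 and 17; -1.36 ± 0.59) downward. With a pseudocount of 5 the upward calls end, at 1.01 and 1.07, and with a minimum of 30 5′ UTR reads all 3 do. Pcdhga2 (110 and 45 reads; 0.82 ± 0.26) was the next highest, and Pcdhb15 (11 and 16; -1.08 ± 0.57) and Pcdhb11 (-0.79 ± 0.51) the next lowest. Among subfamilies only gamma C was above 0 by more than counting error when pooled, at 0.49 (0.28 to 0.70).

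Members with an upstream ATG, a split made after the values had been seen, carried more 5′ UTR reads. The 36 such members had a 5′ UTR share of 5.83% (5.58 to 6.08), 18.5% (17.8 to 19.3) and 5.72% (5.44 to 6.0) for Chx, Harr and WT, against 3.58% (3.30 to 3.88), 14.2% (13.3 to 15.2) and 3.2% (2.90 to 3.53) for the 18 without. Per nucleotide of 5′ UTR the gap was smaller, at 0.742 against 0.612 times the exon density in Chx and 0.727 against 0.545 in WT, and none was left in Harr (2.73 in both). The 5′ UTRs with an ATG were longer as a group (7219 nt over 36 members, 2625 nt over 18), and no sequence is printed here.

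Related genes were measured on the CDS of their longest transcript, in lists chosen with earlier results of these data known. The lists and the all-gene shares beside them were not matched for CDS length. It ran from 228 nt (Brk1) to 8397 nt (Nipbl) in the lists, and its part in their ratios was not tested. Of the 12 non-clustered protocadherins, adhesion proteins encoded outside the clusters, 11 had at least 100 reads, and 6 were past the fold upward in Harr over Chx, beside 4.63% of all genes, and 7 over WT, beside 5.3%. None was past it downward, beside 13.7% and 14.3%. Pcdh8, an activity-regulated protocadherin, was the most translated at 119 RPKM in WT, above every clustered member, with 17233, 5016 and 11546 reads. Pcdh9 (6743, 3396 and 5435 reads) had the highest log2 ratio of Harr to Chx at 1.43 ± 0.03. Pcdh1, counted on the 1083-nt CDS of its longest transcript, had the lowest at -0.25 ± 0.09 (1835, 288 and 1282 reads).

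Of 16 chromatin regulators known to act on the clusters, among them CTCF, cohesin subunits and DNA methyltransferases, 15 had enough reads, with a median log2 ratio (Harr to Chx) of 0.63. Past the fold upward were 2 over Chx (Smc3 and Nipbl), beside 4.63% of all genes, and 0 over WT, beside 5.3%, with 0 downward in both, beside 13.7% and 14.3%. Smc3, a cohesin subunit, was highest at 1.17 ± 0.07 (1472, 619 and 1503 reads), and Rest, a repressor of neuronal genes, lowest at -0.57 ± 0.47 (83, 10 and 62 reads). Dnmt3a was the most translated at 56.5 RPKM in WT, while Dnmt3b, the methyltransferase known to mark alternate promoters in the embryo, had 5, 1 and 3 reads.

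Of 20 signalling partners, such as the kinases Ptk2 and Ptk2b that bind the constant domains and the WAVE complex subunits, all had enough reads. Their median for Harr to Chx was 0.10 on the log2 scale, and 0 were past the fold in either direction, beside 4.63% of all genes upward and 13.7% downward. Marcks, an actin-linked substrate of protein kinase C, was the most translated at 563 RPKM in WT. Axin1, the partner of Pcdhgc3, had the highest ratio at 0.55 ± 0.13 (591, 161 and 439 reads) and Rac1, a small GTPase of actin remodelling, the lowest at -0.85 ± 0.08 (3200, 332 and 2888 reads).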

How the data were processed

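The authors deposited, for each of 3 libraries, Plastid tables of 5′ UTR, CDS and 3′ UTR segments. The deposited counts are whole numbers of reads, the deposited coverage signal is reads per nucleotide of segment, and the deposited RPKM is per kilobase and 1000000 reads. Per the file headers, reads of 25 to 100 nt were counted at their 5′ ends with an offset of 0 on mm10, without ribosomal reads and duplicates. The methods of the study name Rsubread for other Plastid tables and TopHat for an ORF search, and do not say which aligner made these tables. All values here come from the counts.

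Transcript IDs were joined to GENCODE M21 (99.0% of 142446 matched with version), and identical coordinates were counted once. Log2 ratios used CDS totals over 20808 longest transcripts and a pseudocount of 0.5 reads, and a member needed 100 CDS reads in all, or 10 5′ UTR reads in a pair of libraries. Intervals are 95% (Poisson for levels, Wilson for shares, log-normal counting error for ratios, order statistics for medians), and the floor is 3 counts. The statistics were tested on simulated counts that held counting error only, without variation between libraries or reads shared by paralogues. Members and lists were chosen with earlier results of these data known. Named were the C-type genes, the 2 highest and 2 lowest WT levels of each other subfamily, the 3 highest and 3 lowest ratios of each kind per pair of libraries, and in each related list the highest level and both extreme ratios. Other names, the divided exons, the upstream ATG split, the whole reading frames of like length and the addition of Pcdhgb8 were chosen after values were seen. Alternatives covered scaling, pseudocount, minimum reads, shared words and the segments counted. Python 3.11.15 with numpy 2.4.6, pandas 2.3.3 and scipy 1.17.1 was used.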

Additional observations from a re-analysis of the deposited data

How the results depend on the processing

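With 1 library per treatment no library could be left out. No paired analysis was possible because each group is 1 library and no result comes from a test. A change of scale moves all genes alike, so the place of the members against all genes was fixed in advance and only their medians could move. With totals of all reads the members' medians were 0.057 for Harr to Chx and 0.19 for Harr to WT, with 0 members past the fold over WT. On all coding segments of the longest transcript the medians were 0.74 and 0.90, with 5 and 11 members higher, beside 4.63% and 5.3% of all genes, but alpha and gamma genes then count reads of the same shared exons again and again. Over the members with at most 10% shared words the median for Harr to Chx was 0.52, and 2 were higher in Harr than in WT. With size factors from the median of ratios, and with a pseudocount of 5, 1 member was higher in Harr than in Chx. The 5′ UTR calls of Chx over WT upward fell to 0 with a pseudocount of 5, and those in either direction to 0 with a minimum of 30 5′ UTR reads.

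The constant to variable ratios moved with what was counted. Without C-type members they were 0.712, 0.980 and 0.749 for alpha and 0.803, 0.887 and 0.786 for gamma in Chx, Harr and WT. With the 59-nt exon alone the alpha ratio in Chx was 0.677 and the gamma ratios 0.366, 0.443 and 0.303, with log2 changes of 0.55 (Harr to WT) and 0.27 (Chx to WT) for gamma. With the last exon alone the alpha ratio in Chx was 0.553, with changes of 0.66 (Harr to Chx) and -0.21 (Chx to WT), and the gamma ratios were 0.505, 0.511 and 0.469, with a change of 0.017 (Harr to Chx). Over members with at most 10% shared words, gamma gave 0.781, 0.880 and 0.746. Alpha gave 4.10, 6.55 and 4.56 and a change of 0.67 (Harr to Chx), since only the C-type genes were left to divide by.

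As shares of reads, alpha C was 4.55% in Chx and 4.43% in WT. Over the 16 members with at most 10% shared words, shares were taken of the summed density per nucleotide. In Chx, Harr and WT they were 52.8%, 53.2% and 51.9% for gamma A and 36.8%, 37.1% and 37.8% for gamma C. Alpha C had 10.3%, 9.56% and 10.2% and beta 0.116%, 0.133% and 0.112%, as no alternate alpha or gamma B gene was left. The cause of each other change was not tested. Limits are depth (3 counts allow up to 0.0840, 0.308 and 0.0993 reads per 1000000 in Chx, Harr and WT) and alike exons.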
